A study of Mus musculus with 6 samples.

Results

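The regions described here are stretches of the mouse genome that the array names only by position, as chromosome, start and end in the mm9 build with a strand, and that gave signal in muscle of dystrophic or control mice. Of 16181 array probes with such a name, 4332 were selected on detection: in 1 or more of the 3 groups, the scanner software had flagged the spot as well above background on each of the 2 arrays. The kept probes fell in 2355 strand-specific regions of the 4607 on the array. Another 1531 region probes passed the flag on at least 1 array without meeting that rule, and 10318 passed it on none. The array holds 55681 non-control probes in all, and 22929 of the 39500 probes not named by position met the same rule.

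Arrays of this kind carry probes for transcripts catalogued outside known genes, largely from chromatin marks of active promoters and transcribed gene bodies. Long intergenic non-coding RNAs are made by RNA polymerase II and often spliced, are commonly less abundant and more tissue-restricted than messenger RNAs, and many stay in the nucleus. In muscle, known members of this class take part in differentiation and in the regulation of muscle gene programmes. For the regions below the names give no gene, and no mm9 gene annotation was used here, so whether a region lies outside genes was not tested. No region name begins with the word lincRNA, and 13 region probes without a strand were left out.

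RNA labelled as gastrocnemius, a hind-limb muscle, was hybridised in 1 colour (Cy3) to 6 arrays on 1 slide. Tap water was given to C57BL/10 mice in the group B10_tap and to MDX mice in MDX_tap, while the MDX mice of MDX_JJ101 drank the bioceramic water JJ101. Each group had 2 arrays, after 10 months on the water. MDX mice carry a mutation of the dystrophin gene that abolishes the full-length protein and are the usual mouse model of Duchenne dystrophy. C57BL/10 is their background strain and has dystrophin. No dystrophin-competent group received JJ101. The labels do not say whether replicates were separate mice, so p-values measure only the spread between these samples, which may be technical. Levels are log2 signal minus the array's 75th percentile, so a level of 0 is a spot at that percentile. Where 3 pairs of levels follow each other without group names, they are those of B10_tap, MDX_tap and MDX_JJ101, in that order.

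The 3 groups also occupied different positions on the slide. B10_tap and MDX_tap were in slide row 1 and MDX_JJ101 in row 2, and MDX arrays were in columns 3 and 4 while B10_tap was in columns 1 and 2. Slide row and JJ101 cannot be told apart, nor can column and genotype. The lowest level that passed the background flag was -4.23 and -4.13 on the B10_tap arrays, -4.14 and -3.90 on the MDX_tap arrays and -3.33 and -3.29 on the MDX_JJ101 arrays, highest on MDX_JJ101 relative to each array's 75th percentile. Its part in detection was not tested. No kept region spot was saturated. Of 14 heart markers, among them regulators, hormones and contractile proteins, 12 were well above background on every array. Gata4, Nkx2-5, Tbx5, Tbx20 and Hand2, the transcription factors of that list, were among the 12, while Myl7 and Sln were not. Of 14 regulators of limb muscle, 2 were above background on every array and 9 on none, among them Myod1, Myf5 and Myog, the transcription factors that define the skeletal muscle lineage. The labelled tissue is therefore not borne out by its defining regulators.

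Marker lists moved between the groups together with the results below. In MDX_JJ101 against MDX_tap, 5 of 10 tested limb contractile genes were lower and 2 higher (limma, adjusted p of 0.05, median log2 difference -2.92). Myh4, Myh1 and Myh2, the fast myosin heavy chains, and Actn3, a fast-fibre protein of the Z disc, were not well above background on either MDX_JJ101 array. The summed signal of that list, relative to the 75th percentile, was nevertheless 383 to 425 in MDX_JJ101, against 213 to 246 in MDX_tap and 198 to 212 in B10_tap. Such a sum mostly follows the brightest genes of the list. These were Ckm (5.98 in MDX_tap and 7.34 in MDX_JJ101), Myh7 (6.22 and 6.89) and Acta1 (5.90 and 6.65). In the same comparison 7 of 9 macrophage genes were lower and 1 higher (median -1.21), with sums of 85.6 to 91.2 in B10_tap, 118 to 146 in MDX_tap and 89.9 to 102 in MDX_JJ101. Of 10 fibroblast genes, 4 were lower (median -0.94), with sums of 477 to 505, 777 to 827 and 298 to 459 in the same order. Fewer genes of the other lists were tested. Lower were 4 of 6 endothelial genes (sums 61.6 to 65.7, 66.1 to 67.7 and 40.5 to 46.6), 3 of 3 adipocyte genes (246 to 274, 269 to 287 and 172 to 192), 2 of 4 red cell genes (443 to 861, 514 to 587 and 332 to 350) and 2 of 4 T cell genes (6.38 to 6.40, 6.01 to 6.01 and 4.57 to 5.08). Higher were 4 of 13 heart genes (5062 to 5128, 4731 to 4959 and 5569 to 5782) and 1 of 3 liver genes (2.86 to 10.3, 1.07 to 2.06 and 1.13 to 2.40). Limb regulators had sums of 1.71 to 1.73, 1.08 to 1.42 and 1.72 to 1.78, with 1 gene higher and 1 lower of 5 tested. The part of these cell types in the region results was not tested.

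Detection of the regions fell in the order B10_tap, MDX_tap, MDX_JJ101. Of all region probes, 29.0% and 28.7% were well above background on the B10_tap arrays, 25.4% and 23.9% on the MDX_tap arrays, and 19.0% and 17.4% on the MDX_JJ101 arrays. The other probes of the array moved the same way but over a narrower range, from 59.3% and 59.0% through 57.7% and 56.3% to 52.0% and 50.8%. Because detection chose the regions, these shares are a description.

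**Figure D1:**
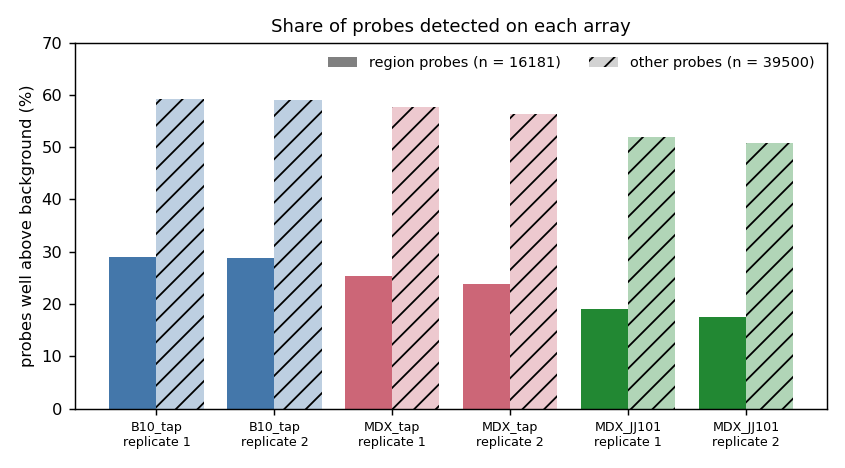
Share of probes well above background on each of the 6 arrays (percent, y axis), for the 16181 region probes and the 39500 other probes. Region probes run from 29.0% on B10_tap replicate 1 to 17.4% on MDX_JJ101 replicate 2, and the other probes from 59.3% to 50.8%.

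Region by region, 2311 of the 2355 regions had a probe detected on both B10_tap arrays, 2005 on both MDX_tap arrays and 1481 on both MDX_JJ101 arrays. In 1462 regions each of the 3 groups had such a probe. Detection in a single group was common for B10_tap, with 331 regions, and rare for MDX_tap, with 31, and for MDX_JJ101, with 13. Among the kept probes 2464 (56.9%) were detected on all 6 arrays, against 84.3% of the other kept probes. The next pattern, detection on all 4 tap-water arrays and neither MDX_JJ101 array, held 698 region probes (16.1%) and 5.51% of the other kept probes. A further 315 region probes (7.27%) were detected on both B10_tap arrays alone, against 1.89% of the other kept probes. Both MDX_tap arrays alone held 21 (0.485% against 0.406%) and both MDX_JJ101 arrays alone 18 (0.416% against 0.0698%). In bulk RNA, fewer cells of a type and less RNA per cell cannot be told apart.

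The detection rule kept some very dim probes and left out some bright ones. The dimmest kept probes lay at mean levels of -4.06, -4.05 and -4.05 in their best group, B10_tap, in chr4:11102287-11118421 (reverse strand), chr3:117935228-118089771 (reverse strand) and chr17:8088950-8106700 (forward strand). Just outside were probes that shone on a single array. A probe of chr11:120079199-120130099 (reverse strand) was at 6.50 on MDX_tap replicate 2 and between -6.49 and -5.49 on the other 5 arrays. A probe of chr8:26870938-26871438 (reverse strand) reached 0.90 on MDX_JJ101 replicate 2 alone, and a probe of chr17:8719950-8783850 (forward strand) 0.54 on B10_tap replicate 2 alone. In all, 1335 region probes passed on exactly 1 array.

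Kept regions were longer than those not kept, with a median span of 12169 against 8590 bases. The share kept was 38.1% of the 983 regions up to 1000 bases long and 59.5% of the 550 regions over 50000 bases, whose number of probes also differed. By probe, the share was 21.6% in the shortest class and between 26.3% and 29.3% in the 4 longer ones. Both strands were kept at like rates, 1193 of 2318 forward and 1162 of 2289 reverse regions. By chromosome the kept share ran from 38.8% on X to 60.7% on 14. In 1316 regions a single probe was kept and in 1039 regions 2 or more, while 345 of 2137 regions with 2 or more probes had every probe kept.

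Region spots were dim. The mean level over the 6 arrays had a median of -2.07 over the 2355 regions (quartiles -3.22 and -0.36), and of 0.59 over 18516 other genes and transcripts. Brightness depends on the probe as well as on the transcript, so these are spot levels and not abundances. Over all kept features, replicate arrays spread more over the regions than over the others. The SD of the difference between the 2 arrays of a group was 0.35 for the regions in B10_tap, 0.45 in MDX_tap and 0.60 in MDX_JJ101, against 0.28, 0.36 and 0.47. Among features detected on all 6 arrays the SDs lay closer, at 0.248, 0.280 and 0.332 for the regions against 0.210, 0.285 and 0.325. There the regions spread less than the others in MDX_tap.

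The brightest region spots were well above background on all 6 arrays, and 6 of the 8 passed the threshold in no comparison. chr2:168804720-168854970 (reverse strand), with the brightest spot, stood at 9.15 and 9.10 in B10_tap, at 8.82 and 8.95 in MDX_tap and at 9.35 and 9.39 in MDX_JJ101. It was above both tap-water groups in MDX_JJ101, and its difference from MDX_tap was 0.49 (SE 0.10, adjusted p = 0.0218) in the limma fit with Benjamini-Hochberg adjustment over all 20871 features. chr17:17481706-17482457 (reverse strand), a short region of 752 bases with 3 of 3 probes kept, was at 8.44 and 8.36, then 8.14 and 8.16, then 8.74 and 8.80 in the same order of groups. Here too the MDX_JJ101 arrays were the highest and MDX_tap the lowest. The difference between them was 0.62 (SE 0.10, adjusted p = 0.014), and the other kept probes gave 0.65 to 0.70. Of the 6 without a call, chr14:78924115-78938125 (forward strand) was at 8.99 and 8.89, then 8.70 and 8.79, then 8.89 and 8.96, with overlapping ranges in B10_tap and MDX_JJ101. The MDX_JJ101 minus MDX_tap differences of those 6 ran from -0.27 in chr4:141527564-141547339 (forward strand) to 0.20 in chr6:83368261-83407280 (forward strand).

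The comparison of MDX_tap with B10_tap asks what differed with genotype on tap water. In it, 3 of 2355 regions were lower and 0 higher at an adjusted p of 0.05 (limma, two-sided), where 0.024% of all features were called, 0.024% lower and 0% higher. At an unadjusted p of 0.05 in limma, 649 of the 2355 regions passed, 585 of them lower and 64 higher. Of all 20871 features 4383 passed, 2580 of them lower and 1803 higher. The median difference was -0.24 over the regions and -0.06 over all features. Being kept through B10_tap alone largely sets a region as lower in MDX_tap, so the fit was repeated on features detected on all 6 arrays. It called 5 regions higher and 19 lower of 1455, where 0.595% and 0.286% of all features were called, with medians of -0.20 and -0.04. The few calls also moved with the scaling. Median centring, which shifted the median of all features to 0.11, gave 9 higher and 18 lower, spike-in scaling 7 and 62, normexp with quantile normalization 6 and 25, and 6 and 24 came from the authors' deposited table.

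Each of the 3 called regions rested on 1 kept probe and was detected in B10_tap alone. That largely sets them as lower in MDX_tap, so their values are a description. chr11:50994911-51050704 (reverse strand) stood at -2.37 and -2.04 in B10_tap, at -6.23 and -5.99 in MDX_tap and at -5.50 and -5.35 in MDX_JJ101. Its B10_tap arrays were above the other 4, none of which was well above background. It was at least 3.52-fold lower in MDX_tap. Such a bound sets the mean of the brighter group against the lowest level that passed the background flag on each array of the other, or the spot's own level where that was higher. chr12:33606225-33638225 (forward strand) was at -1.20 and -1.70 in B10_tap and at -5.56 and -5.75 in MDX_tap, at least 5.94-fold lower, and at -5.24 and -5.24 in MDX_JJ101. chr13:19611679-19620954 (reverse strand) was at -3.56 and -3.63 against -5.63 and -5.67, at least 1.34-fold lower. Of their probes, 1 of 6, 1 of 4 and 1 of 10 were kept. The count fell to 0 without B10_tap replicate 1, B10_tap replicate 2, MDX_tap replicate 1 or MDX_tap replicate 2, with 395, 393, 486 and 540 regions below an unadjusted p of 0.05 in that order (limma). It was 23 without either MDX_JJ101 array.

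Of the 5 regions higher in MDX_tap with the smallest p, none passed the threshold, and 3 had more than 1 kept probe. chr1:175654606-175672031 (reverse strand) stood at 1.53 and 1.50 in B10_tap, at 2.57 and 2.55 in MDX_tap and at 1.97 and 1.93 in MDX_JJ101. The groups did not overlap, and the MDX_tap arrays were the highest. The MDX_tap minus B10_tap difference was 1.05 (SE 0.09, adjusted p = 0.0528), and the 4 other probes of the region gave 0.68 to 0.89. chr1:175653557-175671940 (reverse strand) overlaps it on the same strand and was at 1.60 and 1.62, then 2.61 and 2.63, then 2.03 and 2.05, a difference of 1.01 (adjusted p = 0.0528) between MDX_tap and B10_tap. chr4:146507925-146532650 (reverse strand), with 5 of 5 probes kept, was at -1.46 and -1.41 in B10_tap, at -0.62 and -0.55 in MDX_tap and at -1.31 and -1.36 in MDX_JJ101. Its difference was 0.85 (adjusted p = 0.0667), its other probes gave 0.77 to 1.03, and MDX_JJ101 lay next to B10_tap. The other 2 rested on a single kept probe each. chr17:95149413-95174473 (forward strand) was at -3.54 and -3.37 in B10_tap against -2.61 and -2.53 in MDX_tap (0.89, adjusted p = 0.0682). chr13:44217172-44224947 (reverse strand), kept through MDX_tap alone with 1 of 5 probes, was at least 2.02-fold higher there, a direction that detection had largely set.

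The 2 lower regions with the next smallest p each had 1 kept probe, detected on the B10_tap arrays only. The detection rule had thus largely set their direction. chr8:83218278-83223553 (forward strand) was at -2.33 and -2.30 in B10_tap, at -3.84 and -3.73 in MDX_tap and at -5.39 and -5.29 in MDX_JJ101. It was at least 2.77-fold lower in MDX_tap (adjusted p = 0.0528). chr7:28588159-28617009 (reverse strand) was at -3.69 and -3.86, then -6.19 and -5.78, then -5.32 and -5.37, at least 1.19-fold lower (adjusted p = 0.0528). Other lower regions had the same adjusted p, among them chr7:67111261-67120645 (reverse strand), detected on every array, at -1.31 (adjusted p = 0.0528).

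The comparison of MDX_JJ101 with MDX_tap asks what differed with the water in MDX mice. Of 2355 regions 487 were lower and 141 higher (limma, adjusted p of 0.05), or 20.7% and 5.99%, where 36.1% of all features were called, 16.1% lower and 19.9% higher. The median difference was -0.24 over the regions and 0.00 over all features. Of the lower regions 188 differed at least 2-fold, 249 were detected on every array of both groups, and 218 were undetected on both arrays of a group. Of the higher regions 22 differed at least 2-fold, 122 were detected on every array of both, and 17 were undetected on both arrays of a group. These counts include regions undetected in both MDX groups, where the order was not measured. Among them were chr11:50994911-51050704 (reverse strand), counted as higher, and chr8:83218278-83223553 (forward strand), counted as lower. On features detected on all 6 arrays, 158 regions were higher and 322 lower of 1455, where 28.1% and 16.9% of all features were called, with medians of -0.13 and 0.08.

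The split between directions moved with the scaling. Centring arrays on the median shifted the median of all features to 0.23 and left 251 regions higher and 254 lower. Scaling to the spike-in controls moved it to -0.43 and left 16 higher and 563 lower. With no detection filter 660 were higher and 469 lower. That fit takes in undetected regions, since 3007 of 4607 had a probe well above background on any array. Undetected spots differ between groups too. Of the marker genes detected on no array, all but Lbx1 averaged higher in MDX_JJ101 than in MDX_tap. Myod1 was at -6.15 in MDX_tap and -5.46 in MDX_JJ101, and Lbx1 at -4.91 and -5.28. The part of such shifts in the counts without a filter was not tested. The median of the regions minus that of the other features was -0.27 under the main scaling, median centring and spike-in scaling, -0.06 after normexp with quantile normalization and -0.09 in the authors' deposited table. Without B10_tap replicate 1 or 2 the count called was 285, without MDX_JJ101 replicate 2 it was 385, without MDX_tap replicate 1 it was 161, and without MDX_tap replicate 2 it was 12. With the slide column as a block, which leaves 1 residual degree of freedom, limma called 0 (smallest adjusted p = 0.0578) and 827 regions had an unadjusted p below 0.05. Within column 3 and within column 4, each with 1 array of both groups, the median difference of the regions was -0.17 and -0.28.

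**Figure D2:**
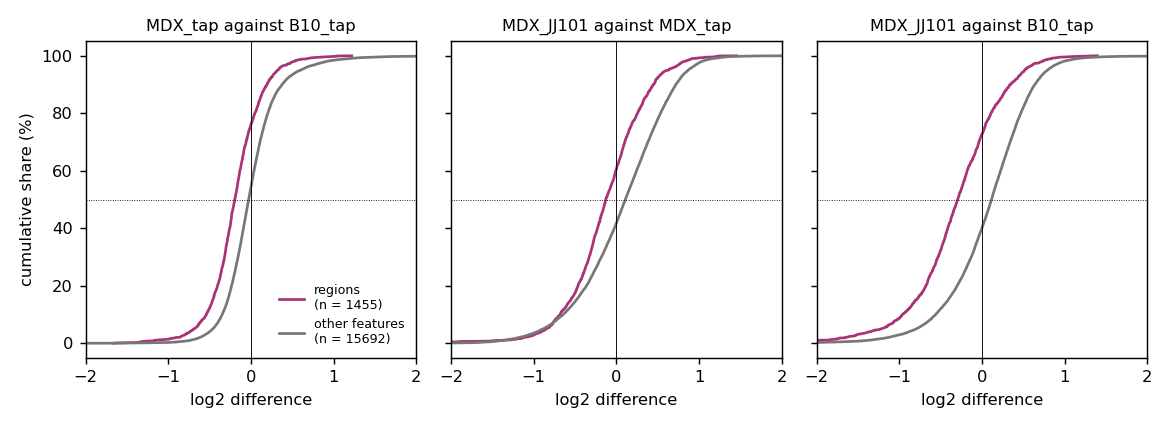
Cumulative share (percent, y axis) of features detected on all 6 arrays by log2 difference (x axis, drawn from -2 to 2), for 1455 regions and 15692 other features in each of the 3 comparisons. The region curves cross the 50% line at -0.20, -0.13 and -0.29 from left to right, and the other features at -0.03, 0.11 and 0.12.

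Several of the regions with the largest measured falls in MDX_JJ101 were covered by more than 1 probe. chr13:48620882-48643532 (reverse strand) stood at 2.58 and 2.43 in B10_tap, at 1.91 and 1.92 in MDX_tap and at -1.04 and -0.55 in MDX_JJ101. Both MDX_JJ101 arrays were far below the other 4, and the groups did not overlap. The MDX_JJ101 minus MDX_tap difference was -2.71 (SE 0.18, adjusted p = 0.0124), a 6.55-fold fall, and the 4 other kept probes gave -3.64 to -2.47. chr8:72105642-72105922 (reverse strand), of 281 bases, was at 0.80 and 0.67 in B10_tap, at 0.48 and 1.13 in MDX_tap and at -1.71 and -1.34 in MDX_JJ101. It fell by 2.33 on the log2 scale (SE 0.25, adjusted p = 0.0128), with -2.34 to -2.32 in its other 2 probes. chr7:99882675-99883730 (reverse strand), of 1056 bases, was at 0.03 and -0.07, then -0.70 and -0.11, then -2.69 and -2.17 in the same order. Its difference was -2.02 (SE 0.26, adjusted p = 0.0129), and all 3 probes of the region were kept, the others at -3.03 to -1.84.

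The other 3 of the 6 largest falls had wider replicate spread or fewer kept probes. chr5:74487385-74497428 (reverse strand) had the largest measured difference, -3.79 (SE 0.38, adjusted p = 0.0127), from 1.56 and 2.34 in MDX_tap to -1.69 and -2.00 in MDX_JJ101, with 0.32 and 1.15 in B10_tap. Of its 10 probes 4 were kept, and the other 3 gave -3.86 to 0.12, so the probes of this region did not move alike. chr5:149947200-149979950 (forward strand) was measured by a single kept probe at 0.18 and 1.24, then 1.11 and 1.18, then -1.19 and -2.34, a difference of -2.91 (SE 0.49, adjusted p = 0.0155). chr13:22110479-22116629 (reverse strand), also with 1 kept probe, was at 0.63 and 1.90, then 2.19 and 1.11, then -0.56 and -1.71, and its replicates lay more than 1 apart in each group. The difference was -2.78 (SE 0.63, adjusted p = 0.0272).

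In 338 regions the tested probe was detected on all 4 tap-water arrays and on neither MDX_JJ101 array, while no region was detected on every array except those of B10_tap or of MDX_tap. The lowest passing level differs by array, so the pattern does not fix the order of single arrays. In chr13:94201024-94201496 (reverse strand), undetected MDX_JJ101 replicate 1 was at -3.28 and detected B10_tap replicate 2 at -3.60. The pattern still largely sets MDX_JJ101 as the lower group, so the 4 brightest of the 338 are given as a description, with no test. chr15:68161768-68193518 (reverse strand), with 5 of 5 probes kept, was at 0.04 and -0.59 in B10_tap and -1.24 and -0.89 in MDX_tap, and at -3.51 and -3.72 in MDX_JJ101, below the flag. It was at least 4.75-fold lower in MDX_JJ101 than in MDX_tap, and its 4 other probes gave -2.95 to -2.60. chr4:126710640-126721240 (forward strand), with 5 of 10 kept, was at -1.14 and -1.30, then -1.42 and -1.17, then -3.34 and -3.89, at least 4.05-fold lower, with -2.99 to -1.50 in the others. In both regions each kept probe had a difference below 0 and B10_tap lay close to or above MDX_tap. chrX:50400250-50410825 (reverse strand) was at -0.64 and -0.42, then -0.71 and -0.53, then -3.37 and -3.31, at least 6.47-fold lower, with tight replicates, although its other kept probe moved by -0.35. chr4:128060015-128075590 (forward strand) was at -1.61 and 1.70, then -2.32 and -3.00, then -3.60 and -4.38, with B10_tap replicates more than 3 apart.

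**Figure D3:**
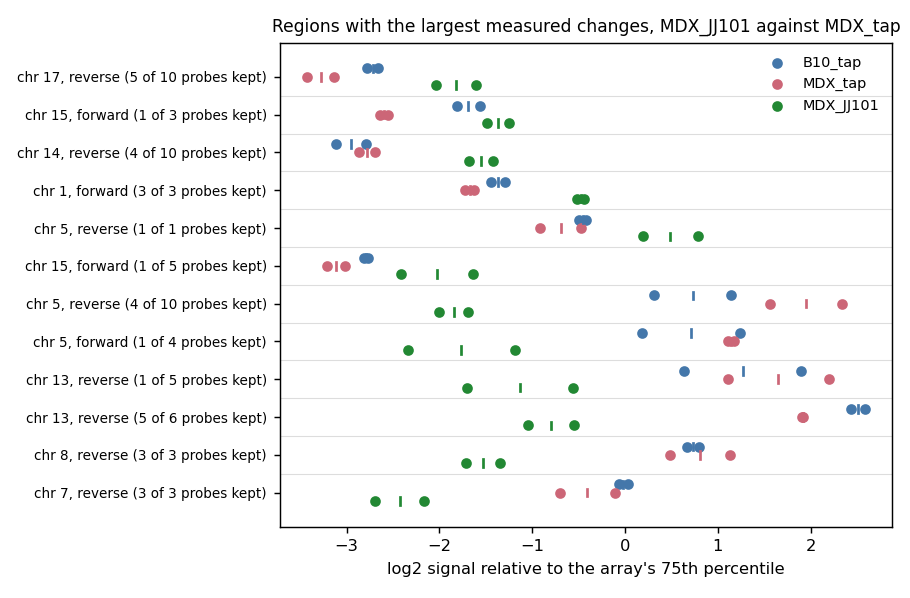
Level on each array (x axis, log2 signal minus the array's 75th percentile) of the 12 regions with the largest measured rises (upper 6 rows) and falls (lower 6 rows) in MDX_JJ101 against MDX_tap. Each point is an array, coloured by group, and each tick the mean of the 2 arrays; in the lower rows every MDX_JJ101 point lies left of the points of both other groups.

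In 10 regions the call between MDX_JJ101 and MDX_tap held when any single array was left out. The 5 with the smallest adjusted p among them were chrX:50400250-50410825, chr8:20014569-20016673 (reverse strand), chr5:36969767-37087176 (reverse strand), chr12:4133875-4243375 (reverse strand) and chr13:44217172-44224947 (reverse strand). Each of the 5 was undetected on both arrays of its lower group. Detection had thus largely set the direction, and their values are a description. chr5:36969767-37087176 spans 117410 bases and was at -2.35 and -2.24 in B10_tap, at -3.11 and -2.73 in MDX_tap and at -5.62 and -5.56 in MDX_JJ101. It was undetected in MDX_JJ101 and at least 1.31-fold lower, with -1.45 in its other kept probe. chr8:20014569-20016673 was at -3.05 and -2.96, then -3.31 and -3.02, then -5.57 and -5.55, at least 1.11-fold lower. Both bounds are smaller than the measured gaps, since the lowest passing level on the MDX_JJ101 arrays takes the place of the undetected spots.

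Of the 141 regions higher in MDX_JJ101, 83 had another kept probe, as did 6 of the 22 that differed at least 2-fold. chr1:92177032-92180487 (forward strand), with 3 of 3 probes kept, stood at -1.44 and -1.29 in B10_tap, at -1.62 and -1.73 in MDX_tap and at -0.51 and -0.44 in MDX_JJ101. Both MDX_JJ101 arrays were above the other 4. The difference from MDX_tap was 1.20 (SE 0.11, adjusted p = 0.0125), and the other 2 probes gave 0.70 to 1.09. chr17:26911397-26917047 (reverse strand) had the largest measured rise, from -3.42 and -3.13 in MDX_tap to -2.04 and -1.61 in MDX_JJ101, with -2.66 and -2.78 in B10_tap, a difference of 1.45 (SE 0.19, adjusted p = 0.0129). Its 4 other kept probes gave -0.55 to 0.26, so no other kept probe came within 1 of it. chr14:55671783-55680316 (reverse strand) was at -3.11 and -2.79, then -2.69 and -2.86, then -1.69 and -1.43, a difference of 1.22 (adjusted p = 0.013), with -0.63 to 1.45 in 3 other probes.

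The remaining 3 of the 6 largest measured rises had 1 kept probe each. chr15:92197603-92208534 (forward strand) was at -1.81 and -1.56 in B10_tap, at -2.64 and -2.55 in MDX_tap and at -1.25 and -1.49 in MDX_JJ101, a difference of 1.23 (adjusted p = 0.0128) from MDX_tap. chr5:122047900-122065325 (reverse strand) was at -0.42 and -0.49, then -0.48 and -0.91, then 0.20 and 0.78, a difference of 1.18 (adjusted p = 0.0219). chr15:61919018-61935580 (forward strand) was at -2.82 and -2.77, then -3.02 and -3.21, then -1.64 and -2.41, a difference of 1.09 (adjusted p = 0.0316) that came to 0.70 without MDX_JJ101 replicate 1. Under spike-in scaling none of these 6 rises passed the threshold.

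In 12 regions the tested probe was detected on both MDX_JJ101 arrays and on no other. These regions were kept through MDX_JJ101 alone, which largely sets the direction, so the values are a description with no test. chr12:4133875-4243375 (reverse strand) was at -2.66 and -2.22 in MDX_JJ101 and at -6.41 and -6.30 and -6.31 and -6.08 in the B10_tap and MDX_tap arrays, at least 2.99-fold higher than MDX_tap. Of its 5 probes, 1 was kept. chr1:139795171-139796306 (forward strand) was at -2.28 and -1.11 against -4.62 and -4.62, at least 5.02-fold higher. In neither region did any tap-water array come near the MDX_JJ101 arrays. chr13:94193230-94193710 (forward strand) was at -1.10 and -2.57 against -4.69 and -4.41, at least 4.54-fold higher, and its MDX_JJ101 replicates lay apart by more than 1. chr1:121201987-121223410 (reverse strand) was at -2.22 and -1.76 against -4.96 and -4.66, at least 4.08-fold higher. Each of the 4 had a single kept probe.

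Detection in MDX_tap alone was found for the tested probe of 10 regions, again with dim spots and a direction largely set by that choice. chr6:40699474-40719122 (forward strand), with both probes kept, was at -4.30 and -4.40 in B10_tap, at -3.19 and -2.63 in MDX_tap and at -3.84 and -5.53 in MDX_JJ101. chr9:55925993-55926583 (reverse strand) was at -4.60 and -6.32, then -1.67 and -3.51, then -5.55 and -5.42, at least 1.65-fold lower in MDX_JJ101. chr7:117144653-117150145 (reverse strand) was at -4.11 and -5.17, then -3.62 and -2.36, then -4.84 and -5.17, at least 1.25-fold lower, and in both the 2 MDX_tap arrays lay more than 1 apart. chr13:44217172-44224947 (reverse strand) was at -4.38 and -4.57, then -3.04 and -3.29, then -5.44 and -5.37, with replicates close together and a bound of 1.11-fold.

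Other kept probes of the same region were compared with the tested probe, but they had passed the same detection rule. Of all 4332 kept region probes, 2898 had a difference below 0 in MDX_JJ101 against MDX_tap and 1434 above 0. Of the 188 regions at least 2-fold lower in MDX_JJ101, 75 had another kept probe, in 68 at least 1 of these had the same sign, and in 54 at least 1 was itself called lower. Of the 22 at least 2-fold higher, 6 had another kept probe, 5 had the same sign in one or more, and 2 had a probe called higher. Over all called regions, 89.8% of the other probes of lower regions and 76.7% of those of higher regions shared the sign, against 91.6% and 89.5% for other genes. Across the 1039 regions with 2 or more kept probes, the tested difference and the mean of the others had a Pearson correlation of 0.51 in MDX_JJ101 against MDX_tap, 0.41 in MDX_tap against B10_tap and 0.55 in MDX_JJ101 against B10_tap. Probes of a region share the same arrays and RNA, so these are descriptions.

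**Figure D4:**
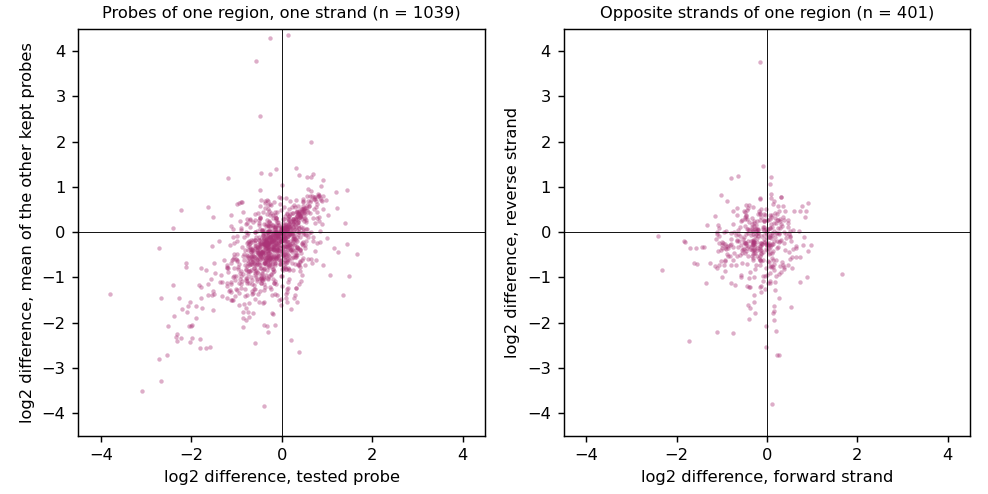
Log2 difference of MDX_JJ101 against MDX_tap for pairs of measurements of the same place: the tested probe against the mean of the other kept probes of the region (1039 regions), and the forward against the reverse strand of the same coordinates (401 places). The first cloud follows a rising line (r = 0.51) and the second does not (r = 0.05).

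The comparison of MDX_JJ101 with B10_tap sets both differences, genotype and water, side by side, and shares its arrays with the other 2 comparisons. Of 2355 regions 883 were lower and 95 higher (limma, adjusted p of 0.05), or 37.5% and 4.03%, where 33.6% of all features were called, 17.4% lower and 16.2% higher. The medians were -0.47 over the regions and -0.01 over all features. Of the lower regions 431 differed at least 2-fold, 475 were detected on every array of both groups, and 360 were undetected on both arrays of a group. On features detected on all 6 arrays, 102 were higher and 548 lower of 1455, where 23.4% and 15.4% of all features were called, with medians of -0.29 and 0.09. Median centring, which shifted the median of all features to 0.39, left 323 higher and 423 lower. Spike-in scaling moved that median to -0.47 and left 17 and 1039. Without a detection filter, a fit that takes in regions detected on no array, 658 were higher and 907 lower. Without B10_tap replicate 1 the count called was 41, without B10_tap replicate 2 it was 23, and without MDX_JJ101 replicate 2 it was 632.

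A pair of regions detected on every array stood on 3 separate steps, highest in B10_tap and lowest in MDX_JJ101. chr7:67111261-67120645 (reverse strand) was at 0.17 and 0.09 in B10_tap, at -1.10 and -1.26 in MDX_tap and at -2.45 and -2.45 in MDX_JJ101. The MDX_JJ101 minus B10_tap difference was -2.58 (SE 0.10, adjusted p = 0.00346), and the differences across the 2 steps were -1.31 (adjusted p = 0.0528) and -1.27 (adjusted p = 0.0124). chr1:71730016-71740391 (forward strand) was at -0.79 and -0.68, then -1.55 and -1.62, then -2.74 and -2.72, a difference of -1.99 (SE 0.10, adjusted p = 0.00361) from B10_tap to MDX_JJ101. In neither did the groups overlap. In 2 further regions the MDX groups had no measured order. chr4:128059190-128061132 (forward strand) was at -2.80 and -2.91, then -3.69 and -3.75, then -5.63 and -5.52, undetected in MDX_JJ101, at least 1.38-fold lower than in B10_tap. chr8:83218278-83223553 (forward strand) was undetected in both MDX groups and at least 2.00-fold lower in MDX_JJ101 than in B10_tap. The chromosome 4 region was detected on every tap-water array and neither MDX_JJ101 array, and the chromosome 8 region in B10_tap alone. Detection had thus largely set the direction of both, and their values are a description. Each of the 4 rested on 1 kept probe, and the step from B10_tap to MDX_tap passed in none (adjusted p of 0.0528 to 0.0682).

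Regions named above for their difference from MDX_tap were low against B10_tap too, a comparison that uses the same MDX_JJ101 arrays. The difference of chr13:48620882-48643532 was -3.30 (SE 0.18, adjusted p = 0.00401), with -3.64 to -2.62 in its other probes. chr15:68161768-68193518 was at least 8.22-fold lower than in B10_tap, a direction that its choice by detection had largely set. For chr8:72105642-72105922 the difference was -2.26 (adjusted p = 0.00954), and for chr7:99882675-99883730 it was -2.41 (adjusted p = 0.00951). chr4:128060015-128075590 (forward strand), with 1 kept probe, was at least 10.2-fold lower in MDX_JJ101 by the mean of B10_tap arrays at -1.61 and 1.70. Its difference of -4.03 came to -2.38 without B10_tap replicate 2, and detection had largely set its direction.

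Among the regions higher in MDX_JJ101 than in B10_tap, 1 named region was carried by 3 probes. chr15:62090565-62091770 (forward strand), of 1206 bases, was at -1.48 and -1.32 in B10_tap, at -0.89 and -1.39 in MDX_tap and at -0.34 and -0.33 in MDX_JJ101. The MDX_JJ101 arrays were the highest, the difference from B10_tap was 1.06 (SE 0.18, adjusted p = 0.017), and the other 2 probes gave 1.01 to 1.04. chr13:21856097-21859200 (reverse strand) was at 4.07 and 3.80, then 4.94 and 4.96, then 4.83 and 5.21, so that both MDX groups lay above B10_tap. It differed from B10_tap by 1.09 (adjusted p = 0.0141) in MDX_JJ101 and 1.02 (adjusted p = 0.0962) in MDX_tap. chr14:55671783-55680316 (reverse strand) differed by 1.40 (adjusted p = 0.0101), but its 3 other kept probes gave -0.95 to 1.65. chr19:23068397-23190256 (reverse strand), with 1 of 10 probes kept, was at -2.38 and -1.93, then -1.94 and -1.75, then -1.32 and -0.99. It differed by 1.00 (adjusted p = 0.0226). chr6:134875724-134931975 (forward strand) differed by 1.30 (adjusted p = 0.0355), which came to 0.86 without B10_tap replicate 1. Under spike-in scaling none of these 5 passed.

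In 153 regions the tested probe was detected on both B10_tap arrays and on no other. That choice largely sets B10_tap as the higher group, so their values are a description. Besides the chromosome 11 and chromosome 12 regions given above, the brightest of them were chr6:134846715-134847933 (reverse strand) and chr10:57550245-57550421 (forward strand). The first was at -2.51 and -1.96 in B10_tap, at -4.78 and -6.05 in MDX_tap and at -5.49 and -5.41 in MDX_JJ101, at least 2.11-fold lower in MDX_JJ101 than in B10_tap. The other, of 177 bases, was at -3.06 and -1.18, then -4.21 and -3.92, then -5.13 and -4.28, at least 2.29-fold lower but with B10_tap arrays nearly 2 apart. Its MDX_JJ101 minus B10_tap difference of -2.58 came to -1.64 without B10_tap replicate 2.

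At like spot levels the regions were mostly lower than the other features. In MDX_tap against B10_tap the median difference of the regions was the lower in each of 7 classes of mean level, by class from -0.79 against -0.57 in spots below -4 to -0.14 against -0.03 in spots above 2. In MDX_JJ101 against MDX_tap the order turned in the dimmest class, with -0.52 for 193 regions and -0.75 for 501 others, and the values were alike from -4 to -3, at -0.45 and -0.44. Brighter spots separated, with -0.14 for 278 regions and 0.09 for 4230 others from 0 to 2, and -0.03 for 222 regions and 0.23 for 6296 others above 2. In MDX_JJ101 against B10_tap the medians above 2 were -0.06 and 0.21. In the 1448 regions whose tested probe was detected on all 6 arrays, the median level was -0.63 on both B10_tap arrays, -0.89 and -0.80 on the MDX_tap arrays and -0.99 and -1.05 on the MDX_JJ101 arrays. The other features detected on all 6 arrays ran the opposite way, from 1.23 on both B10_tap arrays to 1.33 and 1.34 on the MDX_JJ101 arrays.

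**Figure D5:**
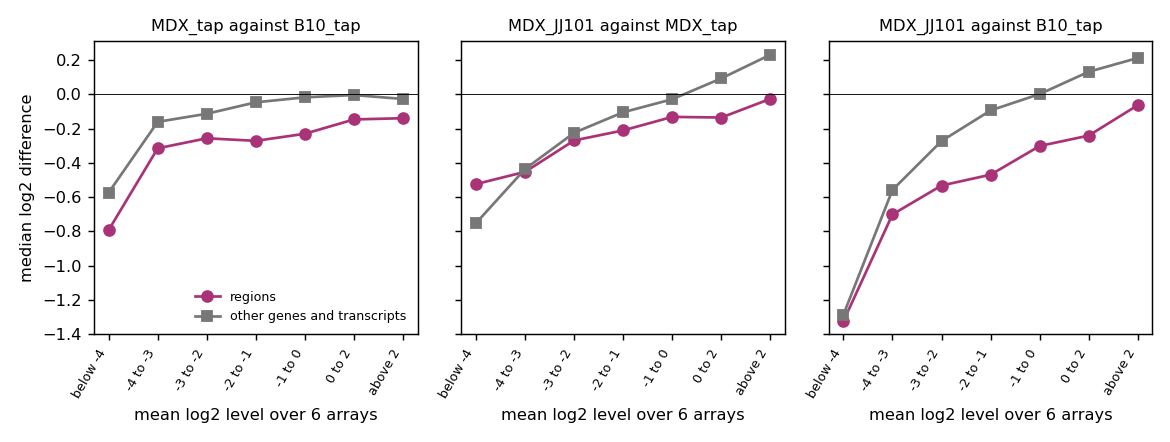
Median log2 difference (y axis) by class of mean spot level (x axis) for the regions and the other features, in each of the 3 comparisons. Above a level of 2 the regions lie at -0.14, -0.03 and -0.06, and the other features at -0.03, 0.23 and 0.21.

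The coordinates of 1067 of 3540 places had probes on both strands. Both strands were kept in 401 of them, a single strand in 466 (238 forward, 228 reverse) and neither in 200. Across the 401 the differences of the 2 strands were nearly unrelated, with Pearson correlations of 0.02, 0.05 and 0.08 in MDX_tap against B10_tap, MDX_JJ101 against MDX_tap and MDX_JJ101 against B10_tap. Both strands were called between MDX_JJ101 and MDX_tap in 24 places, in the same direction in 18 and in opposite ones in 6.

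Strands of a place could differ while each was measured by several probes. At chr5:35975265-35982561 the forward strand was at 3.39 and 3.57 in B10_tap, at 3.80 and 3.57 in MDX_tap and at 2.74 and 2.34 in MDX_JJ101. From MDX_tap to MDX_JJ101 it fell by 1.15 on the log2 scale (SE 0.18, adjusted p = 0.0141), with -1.64 to -1.11 in its 3 other probes. The reverse strand was at 6.73 and 6.51, then 6.22 and 6.40, then 6.60 and 6.73, a difference of 0.35 (adjusted p = 0.0907), with -0.10 to 0.58 in its 3 other probes, 1 of them called higher. At chr12:73838608-73862621 the forward strand was at 7.97 and 7.90, then 7.73 and 8.03, then 7.52 and 7.45 and the reverse strand at 8.49 and 8.35, then 8.24 and 8.34, then 8.33 and 8.36. Neither strand passed between MDX_JJ101 and MDX_tap, with differences of -0.39 (adjusted p = 0.0698) and 0.05 (adjusted p = 0.731). At chr12:119825125-119850750 the forward strand differed by -0.33 (adjusted p = 0.163) and the reverse strand by 0.31 (adjusted p = 0.113), and at chr7:108209996-108216032 by -0.07 (adjusted p = 0.656) and -0.15 (adjusted p = 0.243). At chr5:34696192-34722842 the tested probes differed by -0.14 (adjusted p = 0.328) and -0.46 (adjusted p = 0.0777). The 3 other kept probes of each strand there ran over -1.05 to 0.50 and -1.04 to 0.18, and 1 on each strand was called lower, so the probes did not move alike.

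Kept regions often lay beside each other. Joined where they overlap or lie within 50 kb, the 2355 regions made 1212 groups, and 616 of these held more than 1 region. The largest group, on chromosome 13 from 94180737 to 94203935, held 11 regions with 21 kept probes. Its median difference was -0.07 in MDX_tap against B10_tap, 0.01 in MDX_JJ101 against MDX_tap and 0.02 in MDX_JJ101 against B10_tap. A region of it that all 4 of its probes measured, chr13:94182877-94203935 (reverse strand), was at 1.89 and 1.99 in B10_tap, at 2.03 and 2.29 in MDX_tap and at 2.11 and 2.26 in MDX_JJ101. Both B10_tap arrays lay below the 4 MDX arrays, and the 2 MDX groups overlapped. Against MDX_tap the 1 call in the group was chr13:94193230-94193710 (forward strand), given above.

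The next group, on chromosome 12 from 110842149 to 110988678, held 10 regions with 14 kept probes. In MDX_JJ101 against MDX_tap 5 of the 10 were lower and 0 higher, with a median of -0.48, and against B10_tap 6 were lower, with a median of -0.94. Of all 2355 regions, 20.7% and 37.5% were lower in these comparisons, and of all features 16.1% and 17.4%. In MDX_tap against B10_tap 0 of the 10 passed and the median was -0.38. chr12:110894095-110899517 (forward strand) was at -3.11 and -3.65 in B10_tap, at -2.39 and -2.51 in MDX_tap and at -4.82 and -4.15 in MDX_JJ101. In MDX_JJ101 it was at least 1.82-fold lower than in MDX_tap. chr12:110845020-110850870 (reverse strand) was at -2.27 and -2.50, then -2.89 and -2.57, then -3.96 and -4.00, at least 1.50-fold lower. chr12:110842154-110883594 (forward strand), detected on every array, was at -1.43 and -1.27, then -1.47 and -1.33, then -2.06 and -2.27, a difference of -0.76 (adjusted p = 0.0154). In these 3 regions every MDX_JJ101 array was below every tap-water array. The first 2 were undetected on both MDX_JJ101 arrays, as was chr12:110842149-110845695 (forward strand), another of the 5 lower calls. Detection had thus largely set the direction of these undetected regions, and their values are a description. chr12:110870903-110891628 (reverse strand) was at -0.64 and -0.75, then -1.25 and -0.93, then -1.60 and -1.72, a difference of -0.57 (adjusted p = 0.0343). Not all of the group fell, since chr12:110967974-110969051 (forward strand) was at -0.94 and -1.11, then -1.54 and -1.51, then -1.22 and -1.23, a difference of 0.30 (adjusted p = 0.0735). Neighbouring regions may belong to the same transcript, so these are not independent counts.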

How the data were processed

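Total RNA of 6 samples was measured on Agilent 1-colour (Cy3) arrays. The authors deposited scanner output whose spot intensity values are, per the file headers, background-subtracted by Agilent Feature Extraction, version 11.5.1.1 per the submitters' processing notes. They also deposited a table of log2 values, with column medians of 5.74 to 5.76 and ranks identical to the median signal (Spearman correlation 1 on each array). Its centring and normalization are not given in the sources used here.

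The processed signal was put on the log2 scale and each array's 75th percentile over 59305 non-control spots was subtracted. Outlier spots were left out, which dropped 1 value among the tested regions, and spots of a probe were averaged. A feature was a gene symbol or, without one, an identifier; its brightest kept probe was tested. limma 3.58.1 in R 4.3.3 (lmFit, eBayes) was fitted to 20871 features in all 3 groups, with 3 residual and 2.21 prior degrees of freedom. Two-sided p-values were adjusted over all features by the method of Benjamini and Hochberg. The scripts were tested on simulated data.

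Named regions were the brightest 8; the 6 largest measured rises and falls per comparison among calls, or the 5 smallest p where fewer than 5 passed; the 4 brightest found in or missing from a single group; the 5 brightest with both strands kept; up to 5 calls held under every left-out array; the 3 nearest the detection limit on either side; and the 2 largest neighbour groups. The regions and lists were chosen with earlier results of these data known. Of the regions named by this rule, 1 is not reported here. Alternatives were other scalings, normexp (offset 50) with quantile normalization on the median signal, the authors' table, other filters, probes and fits, blocks and left-out arrays. The number of arrays limits precision.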

Additional observations from a re-analysis of the deposited data

How the results depend on the processing

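The 3 regions called in MDX_tap against B10_tap became 27 with median centring, 69 with spike-in scaling, 31 with normexp and quantile normalization, 30 in the authors' deposited table, 24 on features detected on all 6 arrays, 8 when every probe was tested, 23 with only these groups fitted, and 0 without a filter (792 at an unadjusted p of 0.05 in limma), and 0 to 23 with an array left out. The 628 of MDX_JJ101 against MDX_tap became 1129 without a filter, 285 with only these groups fitted, 0 with the slide column as a block (827 unadjusted), and 12 to 630 with an array left out. The 978 of MDX_JJ101 against B10_tap became 1565 without a filter, 650 on features detected on all 6 arrays, and 23 to 897 with an array left out. The cause was not tested. Under spike-in scaling limma gave all features a common variance (infinite prior degrees of freedom, against 2.21), so its counts rest on another error estimate. The looser positive-and-significant flag kept 8490 probes in 3714 regions, and detection on all 6 arrays 2464 in 1455. Deviations of same-numbered arrays correlated at -0.03 and -0.06 with B10_tap and at 0.16 between the MDX groups, which share slide columns by number. The labels give no pairing; with the replicate block the counts were 2, 530 and 841. The slide column block could not be fitted for comparisons with B10_tap. Of 25 named calls between MDX_JJ101 and MDX_tap, 20 were lost without MDX_tap replicate 2 and 25 with the slide column block; of 27 against B10_tap, 17 were lost without B10_tap replicate 2. None of these named calls reversed. The lowest passing level was highest on the MDX_JJ101 arrays; its part in detection was not tested.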
